A study of Homo sapiens with 12 samples.

Results

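ATR inhibition was set directly against TIMELESS loss in HCT116 TIM-mAID cells, a human colorectal cancer line with a mini auxin-inducible degron (mAID) knocked in at TIMELESS by CRISPR. The comparison holds 6 of the 12 libraries of the study, chosen by treatment label, with 3 treated for 40 h with 1 µM ceralasertib (ATRi) and 3 treated for 40 h with 1 µM 5-Ph-IAA, the auxin analogue that triggers degradation of the tagged protein. The other 6 libraries, 3 with both agents and 3 with DMSO, entered the gene filter and the estimate of spread in fits of all 12 libraries. They did not enter fits of the 6 libraries compared, and some of their levels are given as background. All 4 groups carry the same tag, both agents were dissolved in DMSO, and poly(A) RNA was sequenced. The labels number the libraries of a group as sets 1 to 3 and the study calls them biological replicates. The labels give neither the number of clones behind the line nor a measure of TIMELESS protein, and no untagged line with 5-Ph-IAA was analysed here.

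ATR is the kinase that is recruited to single-stranded DNA at stalled replication forks, where it activates CHK1, holds back new origins and delays mitosis. TIMELESS, with TIPIN and CLASPIN, couples the replicative helicase to the polymerases and helps ATR to signal to CHK1, so both treatments act on the same arm of the replication checkpoint. DNA damage that follows stabilises p53, which HCT116 cells carry in wild-type form, and p53 induces CDKN1A (p21), through which the genes of the cell cycle are shut off.

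The 6 libraries held 32.7 to 34.7 M estimated counts with ATRi and 27.7 to 33.6 M with 5-Ph-IAA (difference of means 2.79 M, 2-sided exact permutation p = 0.2, against a smallest possible 0.1). The share of counts from the mitochondrial genome was 13.4%, 11.1% and 7.40% in ATRi sets 1 to 3 and 13.6%, 10.0% and 6.79% in 5-Ph-IAA sets 1 to 3 (difference of means 0.475 percentage points, exact permutation p = 0.8). MALAT1, a nuclear noncoding RNA, stood at 9457, 3396 and 1632 CPM (counts scaled to effective library size) in the ATRi libraries and at 7240, 4988 and 1331 CPM in the 5-Ph-IAA libraries. In both groups the mitochondrial share and MALAT1 were highest in set 1 and lowest in set 3, and MALAT1 was higher with 5-Ph-IAA than with ATRi only in set 2. With DMSO both were highest in set 2, at 14.9% and 10740.5 CPM, beside 7.85% and 3600 CPM in DMSO set 1. Epithelial genes such as EPCAM, KRT8, KRT18 and KRT19 were present, whereas the intestinal genes CEACAM5, CDX1, LGALS4 and VIL1 were at or near 0. Of 15 markers of other cell types, COL1A1 reached 97.5 CPM and CD68 reached 17.1 CPM in the highest of the 6 libraries, and the other 13 reached at most 1.42 CPM. The summed CPM of those markers ranged from 61.7 to 93.6 with ATRi and from 52.3 to 106 with 5-Ph-IAA, and their part in the results was not tested.

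Among the genes that differed within sets, p53 targets stood on the side higher with ATRi than with 5-Ph-IAA, and mitotic, replication and recombination genes on the lower side, and most differences were smaller than 2-fold. No gene passed an adjusted p of 0.05 in edgeR's quasi-likelihood test of the 12 libraries, 0 of 18049 genes (0%) in either direction. In that fit, 427 genes (2.37%) had an unadjusted p under 0.05, 166 of them higher with ATRi (0.92%) and 261 lower (1.45%). DESeq2 on the same 12 libraries called 25 genes, 11 higher and 14 lower, and limma-voom called 0. ATRi and 5-Ph-IAA libraries of the same set deviated together from their group means (correlations of 0.70, 0.25 and 0.66 in sets 1 to 3). The 6 libraries were therefore also fitted with the set as a block, comparing ATRi and 5-Ph-IAA within sets. That fit has 2 residual degrees of freedom. Over all 4 groups the set numbers did not pair every library, with correlations as low as -0.09. The block over 12 libraries called 0 genes, as did the 6 libraries without a block. Within sets, 202 of 17131 genes (1.18%) passed an adjusted p of 0.05, 32 higher with ATRi (0.187%) and 170 lower (0.992%). Of these, 74 belonged to the gene lists described here, 18 of them higher and 56 lower. Only 14 of the 202 differed at least 2-fold, 11 higher and 3 lower with ATRi. "Rose" and "fell" below mean this within-set call (edgeR, Benjamini-Hochberg adjusted over 17131 genes), and fold changes are log2 ATRi minus 5-Ph-IAA.

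The within-set calls depended on set 1. Without it, 38 of 17099 genes passed, 13 higher and 25 lower, and 22 of the 202 were among them. Without set 2, 528 of 17315 passed, 163 higher and 365 lower (200 of the 202 among them). Without set 3, 627 of 17371 passed, 241 higher and 386 lower (193 of the 202). All 202 genes kept their direction in each of these refits, except that 1 was not tested without set 3. Without set 1, which leaves 1 residual degree of freedom, list medians of the within-set fit stayed near those with every set. They were -0.65 beside -0.59 for G2/M genes and -0.37 beside -0.41 for G1/S and replication genes. For recombination genes they were -0.47 beside -0.55, and for p53 targets of arrest 0.34 beside 0.30. The 21 genes that passed in all 3 refits were 5 higher with ATRi, among them CDKN1A, DHRS2 and H1-2, and 16 lower, among them BRCA1, CDC25C, CDK1, FANCI, FOXM1, HJURP, IQGAP3, NDC80, TROAP and UBE2C.

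**Figure D1:**
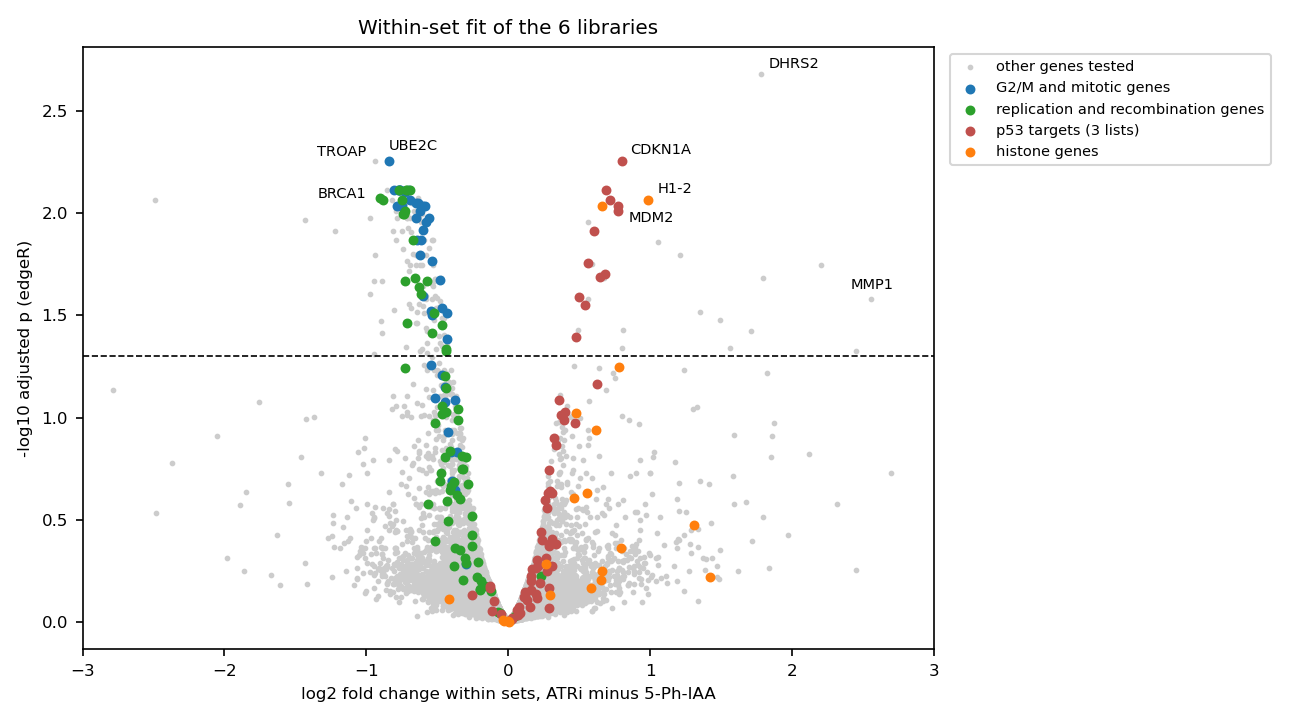
Within-set log2 fold change (x axis, ATRi minus 5-Ph-IAA) against -log10 of the adjusted p from edgeR (y axis) for the 17131 genes tested in the 6 libraries, with the threshold of 0.05 as a dashed line. The 170 genes lower with ATRi are crowded with mitotic, replication and recombination genes, and the 32 higher include p53 targets; 2 genes beyond ±3 on the x axis are not drawn and neither was called.

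The p53 targets of growth arrest and p53 feedback held the most genes that rose. CDKN1A (chromosome 6, 36676463 to 36687332, GRCh38.p14), the cyclin-dependent kinase inhibitor p21, stood at 596, 834 and 842 CPM in ATRi sets 1 to 3 and at 341, 478 and 487 CPM in 5-Ph-IAA sets 1 to 3, with a DMSO mean of 218 ± 25.2 CPM (SD, n = 3). All 3 ATRi libraries lay above all 3 5-Ph-IAA libraries, and the difference was 0.80, 0.80 and 0.79 on the log2 scale in sets 1 to 3. CDKN1A rose within sets by 0.80 ± 0.08 (SE, adjusted p = 0.00551 by edgeR), while the 12-library fit gave 0.80 ± 0.18 with an adjusted p of 0.789.

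MDM2 (chromosome 12, 68808172 to 68850686), the ubiquitin ligase that limits p53, stood at 234, 336 and 319 CPM with ATRi and at 138, 161 and 227 CPM with 5-Ph-IAA. The groups did not overlap, although the lowest ATRi library exceeded the highest 5-Ph-IAA library only narrowly. Its within-set change was 0.77 ± 0.11 (adjusted p = 0.00916 by edgeR), and without set 1 the adjusted p was 0.0553.

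Of 24 tested members of the arrest and feedback list, 8 rose within sets and 0 fell, beside 0.187% and 0.992% of all genes, and its median 12-library log2 fold change was 0.28 (0.46 without 5-Ph-IAA 2) beside -0.00 over all genes. Besides CDKN1A and MDM2 these were PLK2, a polo-like kinase (0.69 ± 0.08), BTG2, an antiproliferative partner of the deadenylase complex (0.72 ± 0.09), TP53INP1, a p53 cofactor (0.77 ± 0.11), PHLDA3, which restrains AKT (0.56 ± 0.09), SESN1, a sestrin (0.65 ± 0.11), and PPM1D, a phosphatase that switches off p53 and checkpoint kinases (0.54 ± 0.10). PHLDA3 was tight in each group, at 48.0, 47.8 and 48.6 CPM with ATRi and 36.3, 32.1 and 29.7 CPM with 5-Ph-IAA, without overlap. SESN1 stood at 35.7, 35.6 and 35.7 CPM with ATRi and at 22.5, 19.2 and 27.5 CPM with 5-Ph-IAA, so its spread lay in the 5-Ph-IAA libraries. In 22 of the 24 members the 12-library fold change was above 0, against 49.7% of all genes. In 10 members all ATRi libraries lay above all 5-Ph-IAA libraries, against 2.41% of all genes. In 15 members the ATRi library was the higher in all 3 sets, against 14.8% of all genes. Not every target took part. The lowest member of the list had a 12-library log2 fold change of -0.54. In 1 member the ATRi library was the lower in all 3 sets, against 15.8% of all genes. GDF15, a secreted stress cytokine, was at 588, 620 and 407 CPM with ATRi and 536, 642 and 227 CPM with 5-Ph-IAA, and CCNG1, cyclin G, differed by 0.12 ± 0.10 within sets (adjusted p = 0.749 by edgeR). Without set 1, 1 of the 24 members passed (CDKN1A), against 13 without set 2 and 14 without set 3, of which 13 were higher and 1 lower with ATRi.

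Of 14 tested p53 targets of cell death, 2 rose and 0 fell, beside 0.187% and 0.992% of all genes, with a list median of 0.25. FAS, a death receptor, was at 34.3, 50.3 and 44.7 CPM with ATRi and at 22.8, 24.9 and 33.1 CPM with 5-Ph-IAA, and it rose within sets by 0.68 ± 0.12 (adjusted p = 0.0197 by edgeR). TP53I3, a quinone oxidoreductase, rose by 0.60 ± 0.09 (adjusted p = 0.0122). Neither gene overlapped between the groups. BAX, which permeabilises mitochondria, was higher in every set by 0.24, 0.28 and 0.25, and its within-set adjusted p was 0.253. BBC3, which encodes the BH3-only protein PUMA, was at 62.0, 58.2 and 46.9 CPM with ATRi and 61.2, 64.4 and 32.5 CPM with 5-Ph-IAA. Its ranges overlapped. The list median was 0.17 without ATRi 3 and 0.13 without 5-Ph-IAA 3, and 0 of the 14 members passed without set 1.

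Of 27 tested p53 targets in repair and metabolism, 2 rose and 0 fell, beside 0.187% and 0.992% of all genes, with a median of 0.19, and 18 were higher in all 3 sets, against 14.8% of all genes. FDXR (chromosome 17, 74862497 to 74872994), the mitochondrial ferredoxin reductase, stood at 201, 203 and 207 CPM with ATRi and at 154, 150 and 129 CPM with 5-Ph-IAA, with a DMSO mean of 88.3 ± 4.12 CPM. Its groups did not overlap and it rose by 0.50 ± 0.09 within sets (adjusted p = 0.0257 by edgeR). TIGAR, which diverts glucose from glycolysis, rose by 0.48 ± 0.09 (adjusted p = 0.0403 by edgeR), and limma-voom within sets put its adjusted p at 0.0534. FBXO22, an F-box protein, and ANKRA2, an ankyrin-repeat protein, were higher in all 3 sets without passing. Their within-set changes were 0.29 ± 0.09 and 0.40 ± 0.09 (adjusted p = 0.23 and 0.0941 by edgeR). Among long noncoding RNAs, PURPL, a p53-induced RNA, rose by 0.81 ± 0.16 from low counts. PURPL was at 5.28, 3.09 and 5.02 CPM with ATRi and 3.30, 1.68 and 2.73 CPM with 5-Ph-IAA. DESeq2 within sets gave it an adjusted p of 0.115, against 0.0372 by edgeR. Without set 1, 0 of the 27 repair and metabolism genes passed and PURPL had an adjusted p of 0.343.

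**Figure D2:**
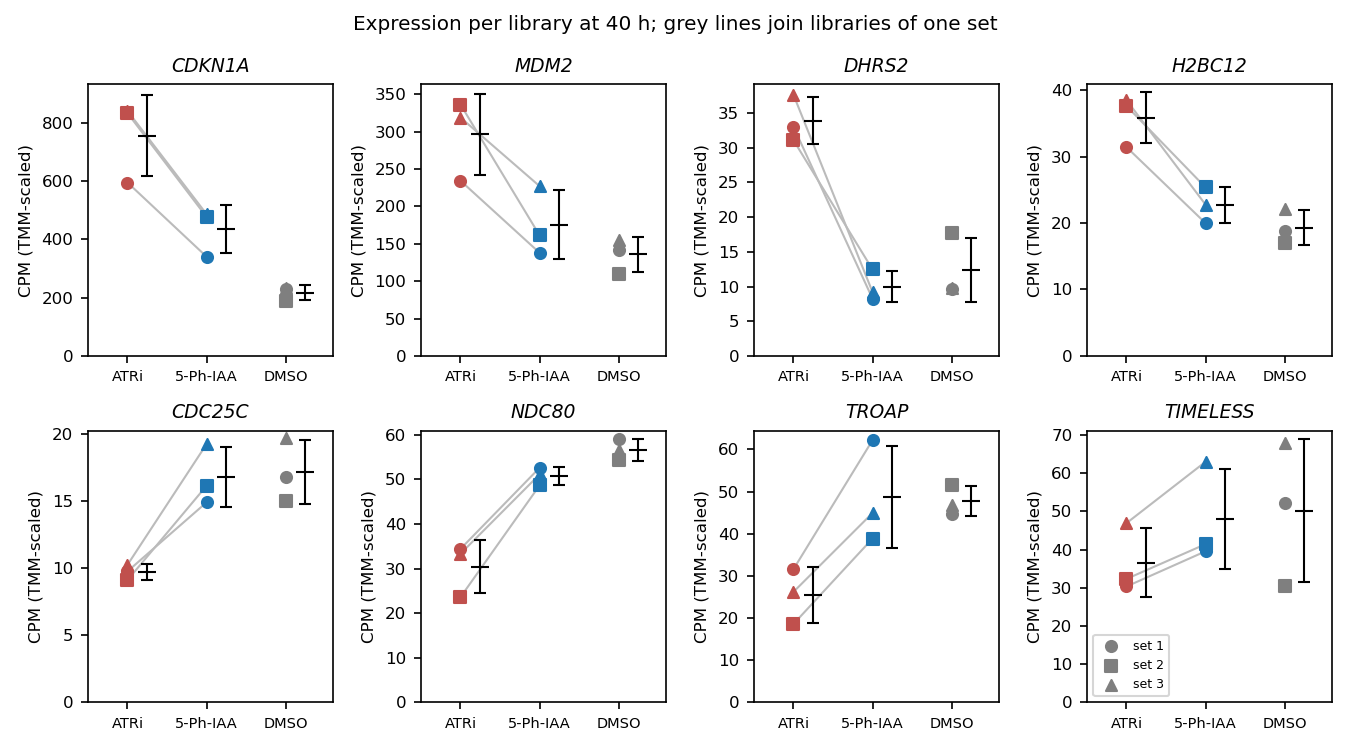
TMM-scaled CPM (y axis) per library for 8 genes with ATRi, 5-Ph-IAA and DMSO; markers give the set, grey lines join the ATRi and 5-Ph-IAA libraries of a set, and black bars are the mean ± SD of 3 libraries. In each panel except that of TIMELESS the ATRi libraries do not overlap the 5-Ph-IAA libraries, and all the lines within a panel run the same way. Genes named by smallest p, such as DHRS2 and TROAP, had to be without overlap to be picked, so for them this is no separate result.

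The mitotic genes formed the largest group on the lower side. All 44 tested members of the G2/M list had a negative 12-library log2 fold change, against 50.2% of all genes, with a median of -0.62 and a range of -0.84 to -0.38, and 43 were lower with ATRi in all 3 sets, against 15.8% of all genes. Within sets 32 of the 44 fell and 0 rose, beside 0.992% and 0.187% of all genes. In 8 members all ATRi libraries lay below all 5-Ph-IAA libraries, against 2.69% of all genes. In bulk RNA, fewer cells in G2 or mitosis and less of these transcripts per cell cannot be told apart.

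The promoters of 2 of these members are shown because the cell cycle homology region (CHR, TTTGAA on either strand), through which the DREAM and MuvB complexes are known to act, lies at their start sites. The windows run from 250 bases before to 50 bases after the first start site listed in RefSeq on GRCh38.p14, 5′ to 3′ on the gene's strand, with the CHR letters in capitals. NDC80 lies at chr18:2571307-2571606 on the plus strand and holds the reverse complement TTCAAA from position -3, and CENPA lies at chr2:26785806-26786105 on the plus strand with TTTGAA from position -18.
NDC80: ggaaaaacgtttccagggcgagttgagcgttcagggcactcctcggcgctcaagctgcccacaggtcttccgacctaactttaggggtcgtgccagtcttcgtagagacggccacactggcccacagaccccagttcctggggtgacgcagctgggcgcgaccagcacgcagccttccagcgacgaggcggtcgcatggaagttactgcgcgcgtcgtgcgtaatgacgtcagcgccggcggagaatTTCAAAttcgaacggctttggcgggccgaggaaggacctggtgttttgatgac
CENPA: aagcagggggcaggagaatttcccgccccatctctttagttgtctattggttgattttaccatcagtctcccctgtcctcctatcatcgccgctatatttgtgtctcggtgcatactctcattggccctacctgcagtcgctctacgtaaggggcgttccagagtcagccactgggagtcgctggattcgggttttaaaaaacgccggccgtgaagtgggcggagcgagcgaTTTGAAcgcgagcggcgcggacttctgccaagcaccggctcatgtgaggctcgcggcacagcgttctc

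CHR letters were present in 25 of 38 G2/M promoters found in RefSeq (65.8%), against 1185 of 12037 promoters of the genes tested (9.85%). They were in 52 of 137 promoters of genes that fell within sets (37.96%) and in 2 of 21 promoters of genes that rose (9.52%). The G1/S list had 1 of 38 (2.63%) and the recombination list 2 of 20, so the genes that fell did not share the motif across lists. CDC25C, AURKB and CCNB1, which fell within sets, held no CHR letters in this window, while FAS, which rose, held 1 match. The promoter of FDXR, one of the p53 targets that rose, is shown because it holds a match to the decamer of the p53 response element, from position -11 and in capitals, in the window chr17:74872945-74873244 on the minus strand.
FDXR: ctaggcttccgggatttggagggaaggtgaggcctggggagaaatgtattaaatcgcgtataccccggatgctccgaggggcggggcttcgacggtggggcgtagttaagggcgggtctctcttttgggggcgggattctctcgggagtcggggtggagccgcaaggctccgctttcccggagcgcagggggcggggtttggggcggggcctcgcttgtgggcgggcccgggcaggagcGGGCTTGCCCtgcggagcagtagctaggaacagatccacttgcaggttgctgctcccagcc

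The p53 decamer was found in 4 of 21 promoters of genes that rose within sets (19.05%) and in 9 of 137 of those that fell (6.57%), against 5.37% of the promoters of genes tested. It was in 2 of 19 promoters of the arrest list (10.53%), 1 of 11 of the death list and 2 of 22 of the repair and metabolism list (9.09% each), and 3 of 38 of the G1/S list (7.895%). A match to either motif is a description of letters in the window and no measure of binding. CDKN1A, MDM2 and SESN1 held no decamer in this window.

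NDC80 (chromosome 18, 2571557 to 2616635) encodes a kinetochore protein that binds spindle microtubules. It was at 34.4, 23.6 and 33.3 CPM with ATRi and 52.6, 48.7 and 51.1 CPM with 5-Ph-IAA. Its DMSO mean was 56.7 ± 2.40 CPM. No ATRi library reached the lowest 5-Ph-IAA library, and NDC80 fell by 0.75 on the log2 scale within sets (SE 0.11, adjusted p = 0.00916 by edgeR). CENPA, the centromeric histone H3 variant, was at 13.2, 10.8 and 14.8 CPM with ATRi and 20.7, 17.7 and 21.1 CPM with 5-Ph-IAA. Its groups did not overlap either (within sets -0.62 ± 0.10, adjusted p = 0.016 by edgeR, and 0.209 without set 1). CDC25C (chromosome 5, 138285265 to 138338355) encodes the phosphatase that activates CDK1 at mitotic entry. It was at 9.75, 9.10 and 10.2 CPM with ATRi and at 14.9, 16.1 and 19.2 CPM with 5-Ph-IAA. Its ATRi libraries lay below all 5-Ph-IAA libraries, with a within-set change of -0.78 ± 0.11 (adjusted p = 0.00916 by edgeR).

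CDK1, the mitotic kinase itself, was at 76.6, 59.5 and 93.7 CPM with ATRi and 132, 92.3 and 189 CPM with 5-Ph-IAA. The ranges of CDK1 overlapped by 1 library on each side, yet each set showed the same direction, and it fell by 0.81 within sets (SE 0.09, adjusted p = 0.00767 by edgeR). UBE2C, the ubiquitin-conjugating enzyme of the anaphase-promoting complex, was at 83.4, 41.3 and 62.6 CPM with ATRi and 151, 77.4 and 107 CPM with 5-Ph-IAA. It fell by 0.84 within sets (SE 0.08, adjusted p = 0.00551), and set 2 was lowest in both groups. AURKB, the kinase of the chromosomal passenger complex (-0.78 ± 0.10), HJURP, the chaperone that loads CENPA (-0.72 ± 0.09), TOP2A, the DNA topoisomerase of chromosome condensation (-0.76 ± 0.09), and PLK1, the polo-like kinase of mitotic entry (-0.65 ± 0.09), fell as well. FOXM1 and MYBL2, transcription factors of the G2/M programme, fell by 0.76 and 0.70 on the log2 scale. The proliferation marker MKI67 (-0.47 ± 0.09, adjusted p = 0.0291) and CDC20, an activator of the anaphase-promoting complex (-0.43 ± 0.08, adjusted p = 0.0308), were at the weaker end of the genes that fell.

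In the 12-library fit, which does not pair the sets, the G2/M list median was -0.29 without 5-Ph-IAA 3. The median of the differences within sets was -0.51, -0.59 and -0.67 in sets 1 to 3. In the within-set fit it was -0.65 without set 1, -0.58 without set 2 and -0.55 without set 3. The number of calls changed more, as 8 of the 44 members passed within sets without set 1, against 42 without set 2 and 35 without set 3. Outside the lists, genes with the smallest 12-library p among non-overlapping genes lower with ATRi included TROAP, a spindle protein (within sets -0.94 ± 0.09). Others were IQGAP3, a scaffold protein of proliferating cells (-0.85 ± 0.09), and CENPU, a centromere protein (-0.66 ± 0.10). SCLT1, a component of centriole appendages (-0.70 ± 0.11), and the coiled-coil genes CCDC150 (-0.73 ± 0.10) and CCDC18 (-0.79 ± 0.11) were among them. So were FBLN1, fibulin 1 of the extracellular matrix (-0.72 ± 0.11), and the noncoding LINC02593 (-0.98 ± 0.14). All 8 fell within sets, but they were picked by non-overlap of the same 6 libraries, so these calls are no separate support. Without set 1 TROAP and IQGAP3 still passed and the other 6 did not.

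Some genes of DNA replication and recombination fell too, with more spread between sets. Of 45 tested G1/S and DNA replication genes, 10 fell within sets and 0 rose, beside 0.992% and 0.187% of all genes. In 44 the 12-library fold change was negative, against 50.2% of all genes, and the list median was -0.43. In 0 of the 45 did all ATRi libraries lie below all 5-Ph-IAA libraries, against 2.69% of all genes. RRM2, a ribonucleotide reductase subunit, was at 103, 78.5 and 177 CPM with ATRi and 159, 123 and 310 CPM with 5-Ph-IAA. The ATRi library was the lower in each set, and RRM2 fell by 0.69 within sets (SE 0.08, adjusted p = 0.00767 by edgeR, 0.0512 without set 1), while the 12-library p was 0.157. CDT1, which licenses origins (-0.71 ± 0.09), ORC6, a subunit of the origin recognition complex (-0.75 ± 0.10), E2F2, an S-phase transcription factor (-0.88 ± 0.12), and TK1, thymidine kinase (-0.44 ± 0.09), also fell. E2F8, a repressor of E2F targets, was lower in every set without passing (-0.73 ± 0.15, adjusted p = 0.057). CCNE2, cyclin E2, was lower in sets 1 and 3 and higher in set 2, at 5.49, 5.87 and 10.1 CPM with ATRi and 10.2, 4.98 and 17.7 CPM with 5-Ph-IAA. The list median was -0.13 in set 2, against -0.42 in set 1 and -0.58 in set 3. It was -0.09 without 5-Ph-IAA 3 and -0.68 without ATRi 3, and 0 of the 45 passed without set 1, against 31 without set 2 and 12 without set 3.

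Of 24 tested homologous recombination and Fanconi anaemia genes, 12 fell within sets and 0 rose, beside 0.992% and 0.187% of all genes. The list median was -0.60. BRCA1 (chromosome 17, 43044295 to 43170327), which directs the resection of broken DNA ends, was at 12.9, 8.92 and 20.1 CPM with ATRi and 19.5, 18.5 and 41.8 CPM with 5-Ph-IAA. The ranges of BRCA1 overlapped through ATRi 3 only, and it fell by 0.90 within sets (SE 0.12, adjusted p = 0.0084 by edgeR). FANCD2, the ubiquitinated clamp of crosslink repair, was at 22.0, 18.9 and 36.3 CPM with ATRi and 41.2, 29.1 and 62.9 CPM with 5-Ph-IAA (within sets -0.77 ± 0.09, adjusted p = 0.00767). Its partner FANCI (-0.72 ± 0.09), the nuclease EXO1 (-0.73 ± 0.10) and POLQ, the polymerase of theta-mediated end joining (-0.74 ± 0.11), fell with it. In set 2 the list median was -0.34, against -0.61 in set 1 and -0.71 in set 3. It was -0.23 without 5-Ph-IAA 3, and 2 of the 24 passed without set 1. APOBEC3B, a cytidine deaminase outside these lists, was at 6.38, 4.52 and 6.43 CPM with ATRi and 11.003, 7.02 and 9.38 CPM with 5-Ph-IAA. Its groups did not overlap, and it fell by 0.65 within sets (adjusted p = 0.0344 by edgeR, 0.578 without set 1).

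Among the fork protection and ATR signalling genes, 2 of 21 tested members fell within sets and 0 rose. The shares over all genes were 0.992% and 0.187%. The list median was -0.18, and 0.06 without 5-Ph-IAA 3. CLSPN, which encodes the adaptor CLASPIN, was at 32.8, 14.4 and 32.5 CPM with ATRi and 51.9, 17.8 and 54.2 CPM with 5-Ph-IAA. Set 2 was low in both groups and its difference was the smallest, and CLSPN fell by 0.58 within sets (SE 0.10, adjusted p = 0.0264 by edgeR, 0.36 without set 1). DDX11, a helicase at the fork, fell by 0.46 within sets (SE 0.09, adjusted p = 0.0287), and since it has near-identical copies its estimated counts are uncertain. ZRANB3, a fork remodeller, differed by -0.35 ± 0.12 within sets (adjusted p = 0.318).

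TIMELESS (chromosome 12, 56416363 to 56449426) is the tagged target of 5-Ph-IAA at the protein level, so its transcript does not check the labels. It was at 30.3, 32.3 and 46.9 CPM with ATRi and 39.5, 41.4 and 63.0 CPM with 5-Ph-IAA. Its DMSO mean was 50.2 ± 18.7 CPM. The ATRi library was lower in each set, by 0.38, 0.36 and 0.42 on the log2 scale, the groups overlapped, and the within-set adjusted p was 0.0667 (0.615 without set 1, 0.032 without set 2 and 0.0374 without set 3). DESeq2 within sets put it at 0.025. Its partner TIPIN (-0.12 ± 0.12 within sets), the kinase ATR (0.04 ± 0.09), the ATR adaptor ATRIP (-0.03 ± 0.10) and the kinase CHEK1 (-0.34 ± 0.11) did not pass, with adjusted p of 0.794, 0.917, 0.949 and 0.25 by edgeR. CHEK1 was at 22.3, 21.3 and 34.1 CPM with ATRi and 26.9, 23.5 and 51.2 CPM with 5-Ph-IAA, lower with ATRi in each set.

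End joining genes and the ATM branch gave 0 calls within sets, in 16 and 11 tested members, beside 0.187% of all genes higher and 0.992% lower. At those shares lists this short can hold 0 calls, so the 0 does not set these lists apart. Their medians in the 12-library fit were -0.02 and -0.11, and leaving out each library in turn they ran from -0.10 to 0.16 and from -0.27 to 0.09. At an unadjusted p under 0.05 there were 0 end joining genes and 1 lower gene of the ATM branch, beside 0.92% of all genes higher and 1.45% lower. DESeq2 within sets called 0 and 2, both lower, beside 38 higher and 234 lower of 17131 genes, and limma-voom 0 in both lists. POLQ, which fell, is not in the end joining list. PRKDC, which encodes DNA-PKcs, ran at 208, 290 and 421 CPM with ATRi and 223, 266 and 535 CPM with 5-Ph-IAA. Its libraries were ordered by set in both groups (within sets -0.11 ± 0.10, adjusted p = 0.789 by edgeR). SHLD3, a shieldin subunit, was at 3.16, 2.72 and 3.24 CPM with ATRi and 2.51, 2.02 and 2.44 CPM with 5-Ph-IAA, without overlap and without passing (0.39 ± 0.17, adjusted p = 0.472). LIG4, the ligase of end joining, differed by 0.23 ± 0.09 (adjusted p = 0.409) and MAD2L2, another shieldin subunit, by -0.12 ± 0.09 (adjusted p = 0.72). CHEK2, the kinase downstream of ATM (-0.44 ± 0.09, adjusted p = 0.0607), and H2AX, the histone that marks breaks (-0.37 ± 0.08, adjusted p = 0.0788), were lower in all 3 sets. ATM itself differed by 0.15 ± 0.09 (adjusted p = 0.642 by edgeR).

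**Figure D3:**
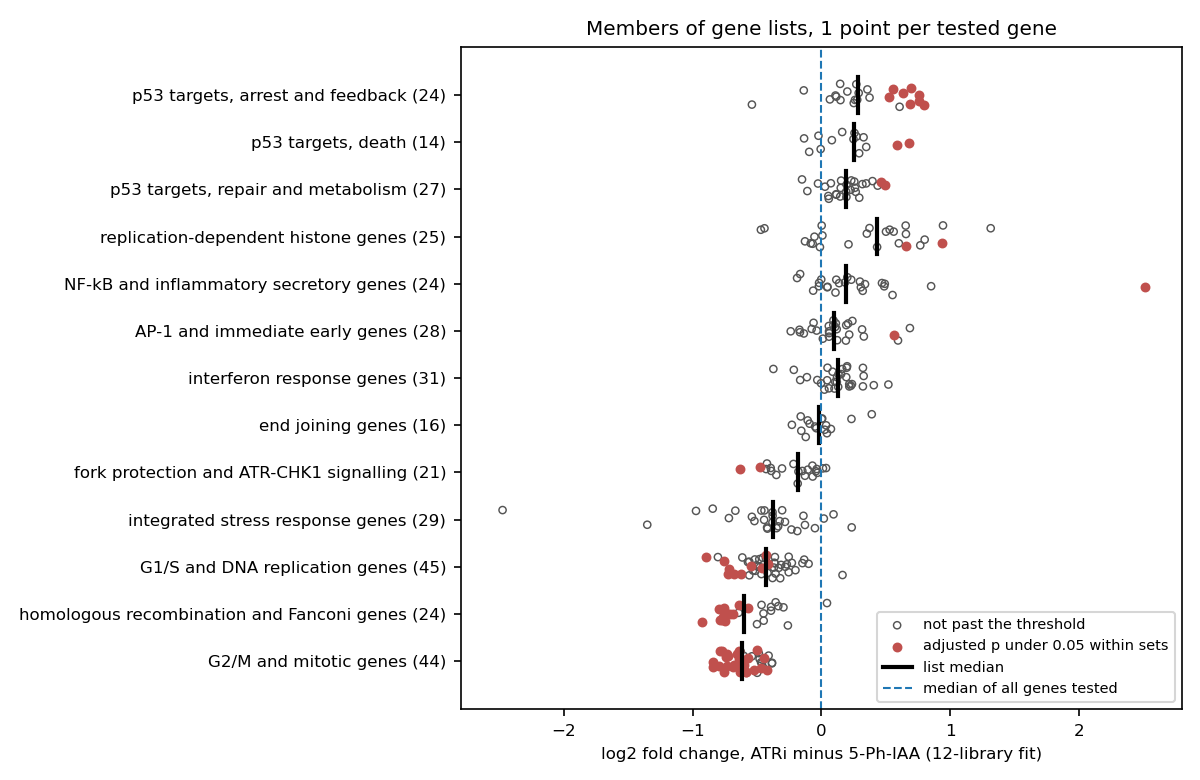
Log2 fold change of the 12-library fit (x axis, ATRi minus 5-Ph-IAA) for each tested member of 13 gene lists (y axis, number of tested members in brackets); filled points passed an adjusted p of 0.05 within sets, black bars are list medians and the dashed line is the median of all genes tested. All 44 G2/M genes lie left of 0, with 32 filled, while the filled points of the p53 and histone lists lie to its right.

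Replication-dependent histone genes had a positive median, unlike the other S-phase genes. Their transcripts end in a stem-loop and largely lack a poly(A) tail, so a poly(A) library reads only the tailed part of them. Of 25 members tested with 12 libraries the median was 0.43. Of 20 tested within sets 2 rose, H1-2 and H2BC12, and 0 fell, beside 0.187% and 0.992% of all genes. H1-2, a linker histone, was at 117, 88.3 and 74.1 CPM with ATRi and 59.7, 58.1 and 28.4 CPM with 5-Ph-IAA, without overlap, and rose by 0.98 ± 0.13 within sets (adjusted p = 0.00856 by edgeR). H2BC12, a histone H2B gene, was at 31.4, 37.6 and 38.5 CPM with ATRi and 19.97, 25.4 and 22.8 CPM with 5-Ph-IAA, again without overlap (0.66 ± 0.09, adjusted p = 0.00916, 0.0888 without set 1). H2BC21 (0.62 ± 0.15, adjusted p = 0.115) and the linker histone H1-4 (1.31 ± 0.46, adjusted p = 0.337) did not overlap either and did not pass, and H1-4 was at or below 0.649 CPM throughout. All ATRi libraries lay above all 5-Ph-IAA libraries in 7 of the 25, against 2.41% of all genes, and below in 0. The list median was 0.33 in set 1, 0.34 in set 2 and 0.78 in set 3, and it was 0.24 without 5-Ph-IAA 3. Histone genes are near-identical copies, so the division of reads among them is uncertain.

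The gene with the smallest p of the comparison was DHRS2 (chromosome 14, 23630115 to 23645639), a short-chain dehydrogenase/reductase outside the lists. It was at 33.0, 31.1 and 37.6 CPM with ATRi and 8.24, 12.5 and 9.20 CPM with 5-Ph-IAA, with a DMSO mean of 12.4 ± 4.604 CPM. Every ATRi library lay above the highest 5-Ph-IAA library, and the 5-Ph-IAA libraries lay in the range of DMSO or just under it. DHRS2 rose within sets by 1.78 ± 0.14 (adjusted p = 0.00209 by edgeR), its 12-library value was 1.77 ± 0.24 (adjusted p = 0.238), and it passed in that fit with no count filter, by DESeq2 and with the mitochondrial share as a covariate. DKK1, a secreted Wnt inhibitor, was at 238, 221 and 195 CPM with ATRi and 160, 140 and 143 CPM with 5-Ph-IAA, without overlap (0.56 ± 0.08, adjusted p = 0.011, 0.157 without set 1). ARRDC3, an arrestin-domain protein, rose by 0.59 ± 0.10 (adjusted p = 0.0178) and ABHD4, a lipase of N-acyl phospholipids, by 0.50 ± 0.10 (adjusted p = 0.0372), and neither passed without set 1.

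Among inflammatory and early response genes, 1 of 23 NF-kB and secretory genes and 1 of 28 immediate early and AP-1 genes rose within sets, and 0 fell in either list, beside 0.187% and 0.992% of all genes. NR4A2, an orphan nuclear receptor of the immediate early class, was at 17.2, 25.1 and 20.8 CPM with ATRi and 12.6, 15.6 and 14.3 CPM with 5-Ph-IAA, without overlap (0.56 ± 0.10, adjusted p = 0.0264 by edgeR, 0.169 without set 1). FOSB (0.62 ± 0.19, adjusted p = 0.25) and NR4A3 (0.70 ± 0.28, adjusted p = 0.423), of the same class, and CSF1, a macrophage growth factor (0.49 ± 0.15, adjusted p = 0.218), did not overlap between groups and did not pass. MMP1, a collagenase, rose by 2.56 ± 0.46 from very low counts, at 0.477, 0.794 and 0.762 CPM with ATRi and 0.0726, 0.214 and 0.0581 CPM with 5-Ph-IAA (adjusted p = 0.0264 by edgeR, 0.0837 without set 1). LSMEM2 and MOBP, at most 1.43 and 0.611 CPM in any of the 6 libraries, rose by 2.20 ± 0.37 and 2.45 ± 0.50 with the same limit of depth, and neither passed without set 1. SULF2, an extracellular sulfatase, was at 29.2, 29.2 and 26.1 CPM with ATRi and 23.1, 21.7 and 21.3 CPM with 5-Ph-IAA. Its DMSO mean was 11.6 ± 0.688 CPM. The ATRi and 5-Ph-IAA groups did not overlap, and the 12-library p was 0.00522 by edgeR. The within-set change of 0.35 ± 0.09 did not pass (adjusted p = 0.137 by edgeR).

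The integrated stress response genes had the most uneven pattern. Their list median was -0.38 in the 12-library fit, with 26 of 29 members negative, against 50.2% of all genes. Within sets 0 of 28 passed by edgeR, DESeq2 or limma-voom, beside 0.187% of all genes higher and 0.992% lower by edgeR. In the 12-library fit 0 had an unadjusted p under 0.05, beside 2.37% of all genes. The median was -0.26 in set 1, -0.69 in set 2 and 0.24 in set 3. Without 5-Ph-IAA 2 it was 0.16, and without 5-Ph-IAA 3 it was -0.68. Without set 3 the within-set fit called 18 of 29 members lower, beside 386 of 17371 genes. SLC7A5, an amino acid transporter induced by ATF4, was at 366, 500 and 440 CPM with ATRi and 476, 874 and 428 CPM with 5-Ph-IAA, with DMSO at 646, 1018 and 653 CPM. Set 2 was the highest in each of these 3 groups, but the lowest with both agents, at 305, 238 and 364 CPM. MTHFD2, a mitochondrial folate enzyme, was highest in set 2 at 274, 371 and 310 CPM with ATRi and 323, 574 and 346 CPM with 5-Ph-IAA. With both agents it was lowest in set 2, at 230, 221 and 243 CPM. FGF21, a stress hormone, reached at most 0.886 CPM in the 6 libraries and did not enter the within-set fit of all 6. Without set 3 it was tested, at -2.47 (adjusted p = 0.0188 by edgeR).

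**Figure D4:**
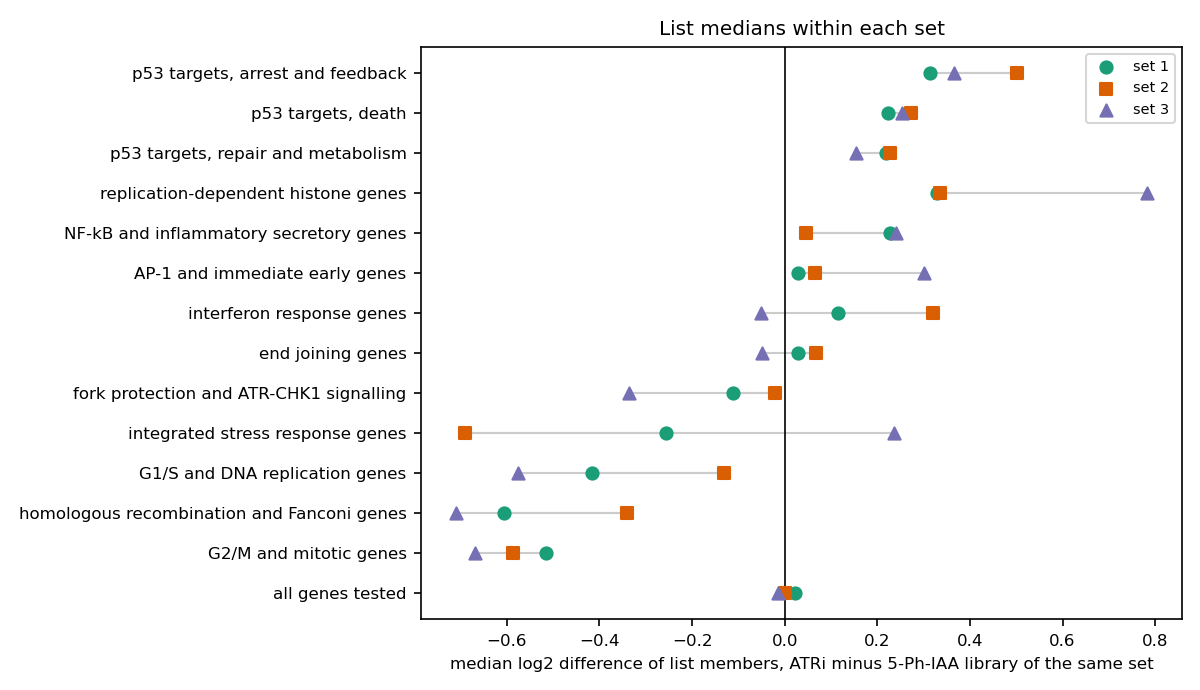
Median log2 difference of the tested members of 13 gene lists and of all genes tested (y axis), ATRi minus 5-Ph-IAA library of the same set (x axis), with 1 marker for each of sets 1 to 3 and a grey line from the lowest to the highest. The recombination median lies between -0.71 and -0.34 and that of the p53 arrest list between 0.31 and 0.50 over the 3 sets, whereas the integrated stress response median is -0.69 in set 2 and 0.24 in set 3.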

How the data were processed

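Poly(A) RNA of HCT116 TIM-mAID cells was sequenced with a directional kit, per the labels' protocols. The authors deposited estimated counts of 62700 genes from Salmon 1.10.1 on GRCh38.p14, per the submitters' processing notes, which also list STAR 2.7.9a, Trim Galore 0.6.7, cutadapt 3.4, SAMtools 1.17 and FastQC 0.12.1. Neither the annotation release nor the strand setting is given in the sources used here, so overlapping, antisense and near-identical genes are uncertain. They were rounded before testing, since 13.6% were not whole numbers.

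Counts were TMM-normalised and filtered with filterByExpr (minimum count 10, total 15), which kept 18049 genes and at least 99.89% of each library. In R 4.3.3, the quasi-likelihood model of edgeR 4.0.16 (with limma 3.58.1) was fitted to 12 libraries with 1 mean per group, and the contrast was ATRi minus 5-Ph-IAA. The median biological coefficient of variation was 0.214. P values were adjusted by Benjamini-Hochberg over every gene in the fit. DESeq2 1.42.0, limma-voom, other scalings, filters and covariates were alternatives. CPM values are TMM-scaled, and the fit was tested on simulated data.

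The set numbers come from the sample titles. Deviations of ATRi and 5-Ph-IAA libraries from their group means correlated by 0.70, 0.25 and 0.66 across genes in sets 1 to 3, each over 0.1 and above every correlation with another number (at most 0.08). The numbers were therefore taken to pair these 6 libraries. A fit of the 6 with the set as a block (2 residual degrees of freedom) gave every "rose" and "fell" above. It also gave most of the fold changes and adjusted p printed for single genes. Over all 4 groups the numbers did not pair every library, with correlations as low as -0.09 in set 1. No 2 libraries agreed within sampling noise (chi-square of 50.5 to 181 per gene between replicates of a group).

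The comparison, the 34 gene lists (711 of 784 genes tested) and the tests were chosen with earlier results of these data known. Named genes are 11 fixed genes, the 10 genes higher and 10 lower with ATRi with the smallest p (adjusted calls first) among non-overlapping genes with a symbol and a mean of at least 5 CPM in the higher group, and the 3 list members with the lowest p in each list. Other named genes, such as those that passed within sets, were chosen after their values were seen, and a few genes that the rule names are not reported here. Positions are from RefSeq on GRCh38.p14, found by symbol for 116 of 119 genes of that rule. Promoter windows, also from RefSeq, use the first start site listed for a gene.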

Additional observations from a re-analysis of the deposited data

How the results depend on the processing

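In the 12-library fit, 0 genes passed also under upper quartile factors, total counts, DESeq2 size factors, a stricter filter, unrounded counts, limma-voom, the 6 libraries alone and a replicate block of 12 libraries, with 251 to 990 genes at an unadjusted p under 0.05. The count was 1 with no count filter (DHRS2), 25 with the DESeq2 test, 5 with the mitochondrial share as a covariate, 14 with the first within-group component as a covariate and 202 with the replicate block of the 6 libraries, and it ranged from 0 to 1 when 1 library was left out. Within sets, DESeq2 called 272 genes and limma-voom 198, and leaving out 1 set gave 38 (set 1), 528 (set 2) and 627 (set 3). These within-set refits and the tools in them were added after seeing the data. The test within sets rests on 2 residual degrees of freedom, and on 1 when a set is left out, and the cause of its dependence on set 1 was not tested.

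Log2 fold changes of 8 named genes, none past the threshold, changed sign in the 12-library fit when 1 library was left out. They ranged from -0.29 to 0.085 for TIPIN, -0.033 to 0.13 for ATR, -0.17 to 0.13 for ATRIP, -0.64 to 0.033 for CHEK1, -0.46 to 0.32 for PRKDC, -0.59 to 0.039 for TEF, -0.13 to 0.50 for GDF15 and -0.18 to 0.25 for BBC3. The far end of the range that changed sign came without 5-Ph-IAA 3 for TIPIN, ATRIP, CHEK1, PRKDC, GDF15 and BBC3 and without 5-Ph-IAA 2 for ATR and TEF. The difference in mitochondrial share was -0.894 percentage points without ATRi 1 and -1.19 without 5-Ph-IAA 3, over a range of -1.19 to 2.20. The difference in library totals ranged from 1.02 to 3.99 M.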

Other observations

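Genes of detoxification and redox balance differed in both directions without passing by edgeR within sets. NQO1, a quinone reductase, was at 567, 586 and 545 CPM with ATRi and 456, 476 and 416 CPM with 5-Ph-IAA, and HMOX1, heme oxygenase, was at 37.6, 28.2 and 30.7 CPM with ATRi and 25.6, 24.4 and 22.9 CPM with 5-Ph-IAA. Neither overlapped between groups, and their within-set adjusted p values by edgeR were 0.106 and 0.115. By DESeq2 within sets they were 0.00879 and 0.1001. DESeq2 called 1 of 10 aryl hydrocarbon receptor targets, which was NQO1, and 1 of 19 NRF2 targets, which may be the same gene. Each count was on the side higher with ATRi, beside 38 of 17131 genes. CYP1A1, the classical target of the aryl hydrocarbon receptor, was at 1.37, 1.44 and 1.44 CPM with ATRi and 1.997, 2.38 and 2.67 CPM with 5-Ph-IAA, an indole compound, with DMSO at 1.64, 1.27 and 2.07 CPM. All ATRi libraries lay below all 5-Ph-IAA libraries (within sets -0.72 ± 0.20, adjusted p = 0.157), and the median of the 10 tested receptor targets was -0.01.

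Among other lists, the 31 tested interferon genes had a median of 0.13, which ran from -0.05 to 0.22 when each library was left out in turn. The 22 circadian clock genes had a median of -0.14 (-0.36 to 0.03), and 10 of them were lower in all 3 sets, against 15.8% of all genes. Ribosome biogenesis (34 tested) had a median of 0.05, which stayed between 0.00 and 0.13. The median was 0.08 for sterol synthesis (23 genes, -0.07 to 0.29) and 0.08 for heat shock chaperones (17, -0.07 to 0.30). The unfolded protein response (21) had 0.07 (-0.04 to 0.19) and hypoxia and glycolysis (26) 0.07 (-0.07 to 0.17). Lysosomal genes (24) had 0.01 (-0.02 to 0.06) and YAP and SRF targets (16) 0.10 (0.03 to 0.14). In these lists 0 members passed within sets by edgeR, beside 0.187% of all genes higher and 0.992% lower. At an unadjusted p under 0.05 in the 12-library fit there were 1 interferon gene and 1 gene of the unfolded protein response, both higher with ATRi, beside 0.92% of all genes. DESeq2 within sets called 1 interferon, 1 circadian and 1 chaperone gene among them, beside 272 of 17131 genes. ITGB4, the integrin beta chain of hemidesmosomes, was at 336, 477 and 474 CPM with ATRi and 492, 601 and 588 CPM with 5-Ph-IAA, without overlap (within sets -0.40 ± 0.09, adjusted p = 0.0715 by edgeR, 0.0013 by DESeq2).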
